A study of Homo sapiens with 8 samples.

Results

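The genes described here are 10 leukocyte integrins and integrin-actin linkers, ITGA4, ITGA5, ITGAL, ITGB1, ITGB2, SELPLG, TLN1, VCL, FERMT3 and ILK, out of 20037 protein-coding genes. They were chosen by name, with earlier results of these data known. Binding was read as the peaks of the 6 deposited peak lists from 20 kb before to 20 kb after each gene on hg38. These windows held 65 of the 33478 regions that the lists covered together. The peaks are those of HA-tagged RUNX1, a DNA-binding transcription factor of blood cells, in HEL, an established human erythroleukemia line whose cells resemble precursors of red cells and platelets.

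CUT&RUN sequences the DNA that an antibody-guided nuclease releases around a bound protein. The lines compared were HEL cells transduced with HA-RUNX1-4A, with HA-RUNX1-4D or with HA-tagged wild-type RUNX1 (WT), 2 biological replicates each, all selected in 2 µg/ml puromycin and read with an anti-HA antibody. Such names usually mean that phosphorylated serine or threonine residues were changed to alanine in 4A and to aspartate, which resembles a phosphorylated residue, in 4D. A further HEL line with an empty vector, also with 2 replicates, was the background for peak calling and has no list of its own here. Only the tagged protein is seen this way, not the cells' own RUNX1, and neither the amount of each tagged form nor markers of the cell type can be read from peak lists.

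Integrins are receptors made of an α and a β subunit that hold cells to matrix and to other cells. ITGA4 and ITGA5 each pair with ITGB1 to bind fibronectin, and the ITGA4 pair binds VCAM1 too, and ITGAL pairs with ITGB2 to form LFA-1, which binds the ICAM proteins. Inside the cell TLN1 (talin) and FERMT3 (kindlin-3, the kindlin of blood cells) bind the tail of the β subunit and switch the receptor to its active form. VCL (vinculin) ties talin to actin, ILK is a scaffold at the same sites, and SELPLG (PSGL-1) is the ligand of selectins on which leukocytes roll before integrins arrest them. Many of these genes serve megakaryocytes and platelets as well as leukocytes.

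A peak is 1 row of a library's list, and a region is the union of peaks that overlap by at least 1 base in any of the 6 lists. The set of a line holds those regions that its replicates both called. The replicate 2 lists stood apart from the replicate 1 lists in every line, with 3.87 (4A), 3.94 (4D) and 3.83 (WT) times as many peaks, so the members' counts are also given by replicate. Lists held 5358 to 6764 peaks in replicate 1 and 21122 to 25911 in replicate 2. Read depth per library is unknown, and a region missing from a list was not called at that library's depth. Fold enrichment over background and −log10 q are the authors' values for a peak and describe it within its own list only.

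Promoter sequence is shown for 4 members because peaks lay over the first of these promoters in all 6 libraries, over the second in 4, over the third in the replicate 2 lists alone, and over the fourth in none. Each is the stretch before the RefSeq start (build GRCh38.p14), 5′ to 3′ on the gene's strand, which is chr9:35732196-35732445 (minus) for TLN1, chr10:32958231-32958480 (minus) for ITGB1, chr10:73997866-73998115 (plus) for VCL and chr12:54419267-54419516 (minus) for ITGA5. Capitals mark a match to the words searched below.
TLN1: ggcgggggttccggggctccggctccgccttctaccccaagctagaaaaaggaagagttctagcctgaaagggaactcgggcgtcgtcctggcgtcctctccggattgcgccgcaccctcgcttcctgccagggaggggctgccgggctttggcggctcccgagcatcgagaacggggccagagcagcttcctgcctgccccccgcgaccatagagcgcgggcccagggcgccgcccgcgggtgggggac
ITGB1: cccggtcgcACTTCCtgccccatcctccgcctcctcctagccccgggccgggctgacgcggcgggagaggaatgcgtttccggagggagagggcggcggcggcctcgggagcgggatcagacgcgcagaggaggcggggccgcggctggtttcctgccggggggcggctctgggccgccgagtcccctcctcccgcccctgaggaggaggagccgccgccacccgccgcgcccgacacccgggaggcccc
VCL: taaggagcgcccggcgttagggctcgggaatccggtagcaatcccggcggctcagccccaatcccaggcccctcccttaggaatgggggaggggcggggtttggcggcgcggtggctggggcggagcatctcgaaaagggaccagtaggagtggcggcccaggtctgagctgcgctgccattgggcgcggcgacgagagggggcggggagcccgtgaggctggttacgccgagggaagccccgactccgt
ITGA5: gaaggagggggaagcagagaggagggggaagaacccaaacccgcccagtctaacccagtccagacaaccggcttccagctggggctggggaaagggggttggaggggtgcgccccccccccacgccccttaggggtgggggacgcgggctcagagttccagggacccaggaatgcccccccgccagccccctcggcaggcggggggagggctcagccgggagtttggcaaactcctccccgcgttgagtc

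RefSeq's promoter table had entries for 7 of the 10 members, with 9 starts, since FERMT3 and ITGB1 have more than 1. Their windows of 250 bases were mostly rich in G and C, with a median of 70.4% against 58.0% over all 35116 windows of the table. The exception was the window at the ITGB1 start inside the gene, with 41.6%. The words TGTGGT and TGCGGT, the core of the RUNX motif, were searched on both strands, and 0 of the 9 windows held either, against 16.3% of all windows. The GATA words AGATAA and TGATAA were found in 1 window, at base -29 from the first FERMT3 start, where a minus sign means before the start, against 14.6% of all windows. The AP-1 word TGAGTCA was found in 1 window, at the second FERMT3 start, against 4.20% of all, and the ETS word GGAAGT in 4 windows, at ILK, at the second FERMT3 start and at both ITGB1 starts, against 19.5% of all. No words overlapped, and the GATA, AP-1 and ETS words were picked with the sequences in view. Sequence at the peak summits themselves was not analysed here beyond these windows. The summits at ITGA4 and at the second FERMT3 start lay outside their windows, and ITGA5 had no peak over its window. The count of 0 thus does not show that RUNX words are missing where peaks lay.

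RUNX1 peaks lay at nearly all of these genes in each line. A region called in all 6 libraries was present at 9 of the 10 members, with ITGB1 the exception, while 21.0% of all protein-coding genes had one within the same distance. Because the members were chosen with earlier results known, these shares describe them and do not test an excess over the genome. The 4A set reached 9 members (31.1% of all protein-coding genes), the 4D set 9 (28.0%) and the WT set 10 (34.9%). Among genes within the members' range of length, 7.1 to 123.0 kb, the shares were 21.8% for all 6 libraries, 32.1% for 4A, 28.9% for 4D and 36.5% for WT. Replicate 1 lists reached 9 (4A), 9 (4D) and 10 (WT) members, against 32.2%, 29.0% and 35.8% of all protein-coding genes. In the longer replicate 2 lists every member had a region in each line, against 65.7% (4A), 61.8% (4D) and 66.0% (WT) of all protein-coding genes. Among genes within the members' range of length the replicate 1 shares were 33.2% (4A), 29.8% (4D) and 37.4% (WT), and the replicate 2 shares 68.8% (4A), 64.2% (4D) and 68.9% (WT).

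**Figure D1:**
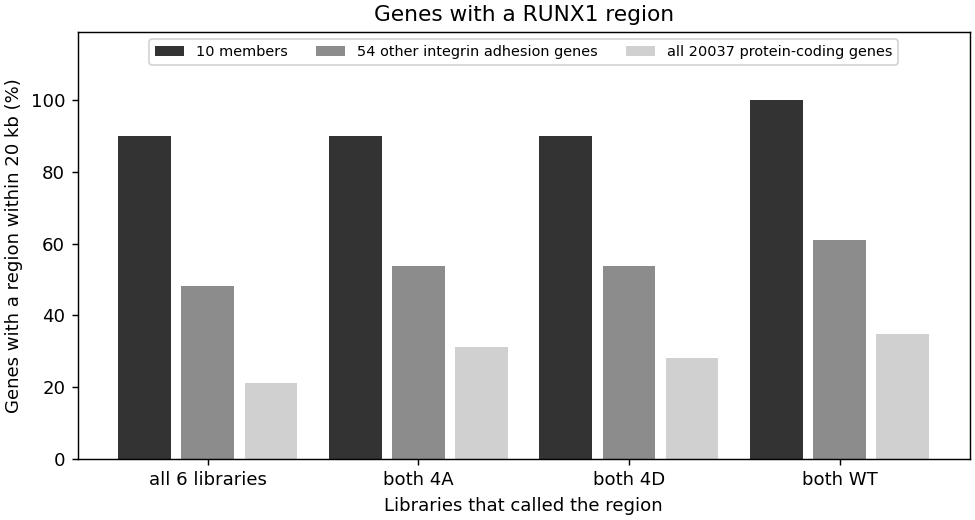
Share of genes (percent, vertical axis) with a region within 20 kb that was called in all 6 libraries, or in both libraries of 4A, 4D or WT, for the 10 members, the 54 other integrin adhesion genes and all 20037 protein-coding genes. The members stand at 90.0% or 100.0% in each group of bars, and all protein-coding genes between 21.0% and 34.9%.

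The members carried more regions per gene than the genome at large, a description under the same limit of choice. Their median was 6.5 regions of the union in the window, from 1 at ITGA4 to 13 at ITGB2, against a median of 2.0 over all protein-coding genes, and 1.0 against 0.0 for regions called in all 6 libraries. ITGAL and TLN1 had 3 such regions each, FERMT3 and ILK 2 each, and ITGA4, ITGA5, ITGB2, SELPLG and VCL 1 each. The mean was 1.5 per member against 0.266 over all protein-coding genes. VCL, the longest member at 123.0 kb, had 7, and SELPLG, at 12.0 kb, had 9.

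**Figure D2:**
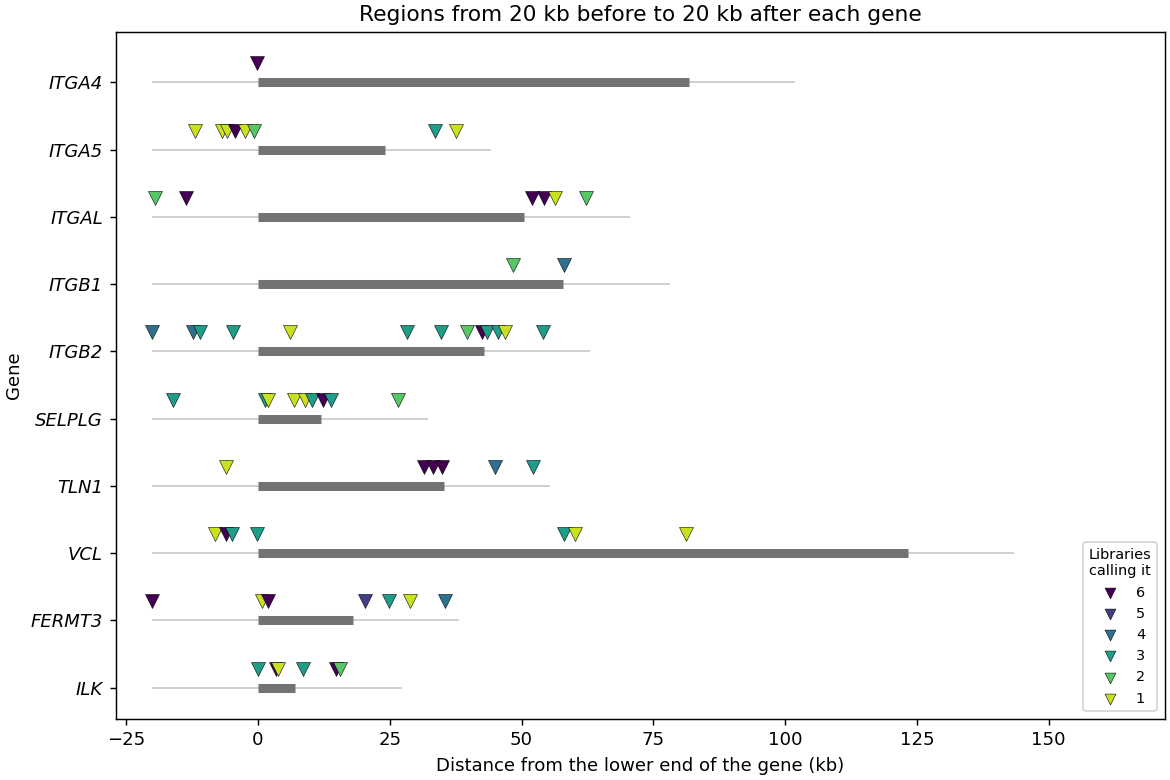
Regions in the window of each gene (1 row per gene), by distance in kb from the lower-coordinate end of the gene, which is drawn as a dark bar with its window as a thin line. A triangle marks the middle of a region and its colour the number of libraries, from 1 to 6, that called it; ITGA4 has 1 region and ITGB2 has 13.

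ITGA4, the α4 subunit, had a single region, and it was called in all 6 libraries. It lay over the lower end of the gene (chromosome 2, 181456522 to 181457680), which is the end with the RefSeq start. Fold enrichment at its peaks was 7.96 and 8.98 in the 4A replicates, 3.87 and 15.0 in 4D, and 4.87 and 19.5 in WT. Measured from the start, with a minus sign for before it, the summits were at -373 and -550 bases in 4A, -465 and -389 in 4D, and -537 and -329 in WT. In each line the −log10 q was higher in replicate 2. With the replicates pooled the lines overlapped, which does not compare them. Its percentile rank by −log10 q within the list, where 100 is the strongest peak, was 75.4 and 92.8 in 4A, 30.7 and 95.0 in 4D, and 55.1 and 96.6 in WT. The part of this promoter window that lies before the annotated gene, chr2:181457136-181457204 (plus), is within the region and is printed here because a peak of each library reached into it. The WT replicate 1 peak ended at 181457156 and so reached only its first bases.
ITGA4: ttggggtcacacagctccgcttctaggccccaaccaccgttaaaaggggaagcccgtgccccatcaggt

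ITGB1, the β subunit shared by the α4 and α5 receptors, was the only member without a region called in all 6 libraries. Its leading region lay over the upper end (chromosome 10, 32958043 to 32958609), over the RefSeq start and the promoter printed above. It was called in 4A replicate 2 (−log10 q 10.9), 4D replicate 2 (4.89) and both WT replicates (5.43 and 16.9). The region was thus in the WT set alone, and what kept it from the 4A and 4D sets was its absence from their shorter replicate 1 lists. Its percentile rank in WT replicate 1 was 21.2, which is low in that list. The only other ITGB1 region, 9.44 kb inside the gene, was called in 4A replicate 2 (−log10 q 9.20) and WT replicate 2 (4.38).

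ITGA5, the α5 subunit of the fibronectin receptor, had a different layout, with 0 libraries calling a peak over its promoter window or anywhere inside the gene. The leading region (chromosome 12, 54390252 to 54391566) lay 3.69 kb beyond the end opposite to the start and over the neighbouring gene ZNF385A. All 6 libraries called it, with fold enrichments of 6.53 and 13.3 in 4A, 7.88 and 15.1 in 4D, and 9.91 and 15.3 in WT. The other 7 regions were called in replicate 2 lists alone, 4 of them only in WT and 1 only in 4D. One of these, 9.37 kb before the gene's start, was called in all 3 replicate 2 lists (−log10 q 15.5 in 4A, 6.69 in 4D and 19.6 in WT).

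ITGAL, the α subunit of LFA-1, had 3 regions called in all 6 libraries, and none of its 6 regions lay within the gene. The leading one (chromosome 16, 30458598 to 30459477) lay 13.3 kb below the gene, in a stretch whose nearest protein-coding gene was SEPHS2 at 12.7 kb. Its fold enrichment was 9.38 and 25.5 in 4A, 8.36 and 20.4 in 4D, and 14.4 and 21.8 in WT. Its percentile rank was 67.5 and 96.9 in 4A, 63.0 and 93.0 in 4D, and 87.7 and 92.9 in WT. The other pair lay 0.978 and 2.96 kb above the gene (30524163 to 30525420 and 30526144 to 30527784), both over ZNF768, a zinc finger gene. The region farther from ITGAL had fold enrichments of 8.67 and 6.72 in 4A, 7.72 and 15.4 in 4D, and 9.21 and 16.5 in WT.

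ITGB2, the β subunit of LFA-1 and of the other β2 integrins of leukocytes, had the most regions of the members, 13. The leading one lay over its upper end (chromosome 21, 44928207 to 44928832) and was called in all 6 libraries. Fold enrichment was 6.68 and 11.7 in 4A, 5.30 and 35.3 in 4D, and 5.26 and 30.4 in WT. In the replicate 2 lists its −log10 q was 65.1 in 4A, 257.0 in 4D and 177.0 in WT, at percentile ranks of 94.6 (4A), 99.9 (4D) and 99.7 (WT). In the replicate 1 lists it was 14.7 in 4A, 8.18 in 4D and 8.97 in WT, at ranks of 71.9 (4A), 53.2 (4D) and 43.0 (WT). By rank 4A was thus the highest of the lines in replicate 1 and the lowest in replicate 2. Above this region, those starting at 44928988 and 44931074 had −log10 q of 6.04 and 5.41 in 4A replicate 2, 21.0 and 36.4 in 4D replicate 2, and 19.1 and 11.2 in WT replicate 2, and no replicate 1 list called either.

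SELPLG had the highest-ranked region of the 10 genes by mean percentile over the lists (91.0). It lay over the upper end of the gene (chromosome 12, 108633528 to 108635076). Fold enrichment was 12.1 and 15.3 in 4A, 10.7 and 17.9 in 4D, and 8.52 and 17.0 in WT. The −log10 q was 28.8 and 106.0 in 4A, 19.7 and 101.0 in 4D, and 19.4 and 88.5 in WT. By −log10 q the replicates of a line differed by more than the lines did. The lines overlapped with the replicates pooled, which does not compare them. The other 8 regions at SELPLG were called in replicate 2 lists alone, and the strongest of them, 1.54 kb inside the upper end, had −log10 q of 24.9 in 4A, 4.74 in 4D and 20.2 in WT.

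**Figure D3:**
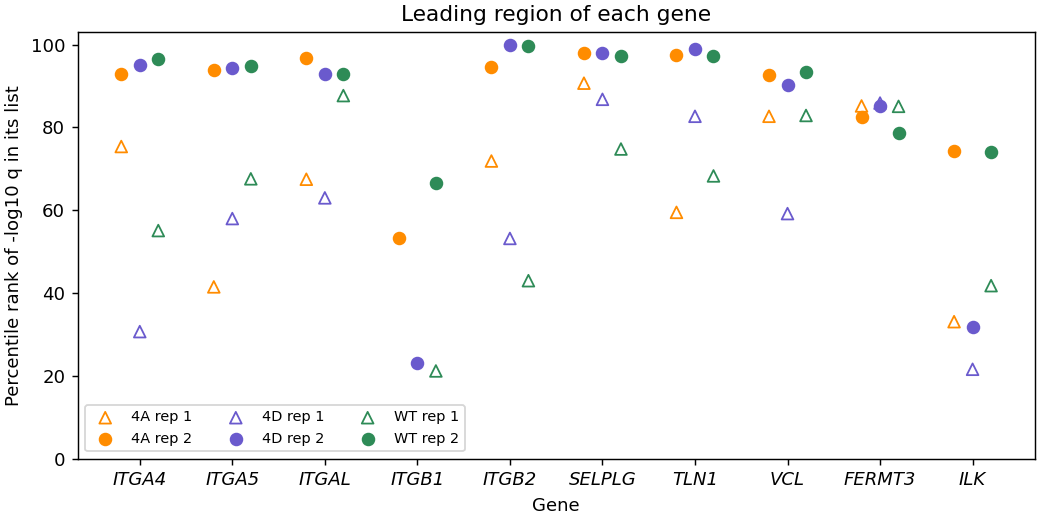
Percentile rank by −log10 q (100 is the strongest peak of the list) of the leading region of each gene in each library, with triangles for replicate 1 and filled circles for replicate 2. Circles stand above triangles in each line except at FERMT3, SELPLG lies high in each list (74.8 to 98.1), and ITGB1 has no point in the replicate 1 lists of 4A and 4D.

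TLN1, which couples β subunits to actin and activates them, had 3 neighbouring regions called in all 6 libraries at the upper end of the gene, where its RefSeq start lies. From the start inward they spanned 35730967 to 35732826, 35729590 to 35730629 and 35727964 to 35729037 on chromosome 9. The first covered the promoter printed above and the neighbouring gene CREB3 on its far side, so it cannot be given to TLN1 alone. Its fold enrichment was 9.98 and 16.6 in 4A, 9.97 and 14.5 in 4D, and 11.2 and 18.0 in WT, and its summits were at -70 and -88 bases from the start in 4A, -161 and -111 in 4D, and -161 and -161 in WT. The middle region, 1.57 kb inside the gene, ranked highest, with fold enrichments of 7.16 and 25.1 in 4A, 10.9 and 34.7 in 4D, and 9.45 and 29.7 in WT. The innermost region, 3.16 kb inside, had 8.80 and 12.7 in 4A, 6.43 and 11.5 in 4D, and 7.31 and 14.6 in WT. With the replicates pooled, the values of the lines overlapped for each of the 3 regions. Replicate 2 was above replicate 1 throughout, so this overlap does not compare the lines. One more region of the window was called in a replicate 1 list. It lay 9.59 kb above the gene and over GBA2, and was in the 4A set and in the replicate 2 lists of 4D and WT.

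FERMT3 had 2 regions called in all 6 libraries, and the weaker of them was the one within the gene. That region (chromosome 11, 64207489 to 64208242) lay at the second RefSeq start, with summits 81 and 218 bases after it in 4A, 144 and 194 in 4D, and 122 and 169 in WT. Its percentile rank was 28.0 and 26.5 in 4A, 30.8 and 3.06 in 4D, and 39.7 and 35.3 in WT. The peak was thus near the bottom of the 4D replicate 2 list, where its −log10 q was 1.92, and between the ranks of the 4A and WT peaks in replicate 1. At the first RefSeq start a peak was called in WT replicate 2 alone (−log10 q 4.99). The leading region of the window (64185244 to 64186466) lay 19.5 kb below FERMT3 and over STIP1, with fold enrichments of 12.9 and 8.26 in 4A, 10.8 and 10.6 in 4D, and 12.0 and 9.97 in WT.

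The region that all 6 libraries called at VCL lay before the promoter. It was the leading region (chromosome 10, 73991747 to 73992291), 5.83 kb before the gene's start, with no protein-coding gene nearer than VCL. Fold enrichment was 13.2 and 13.6 in 4A, 8.39 and 14.8 in 4D, and 14.4 and 18.8 in WT. Over the promoter itself (73997584 to 73998260) only the replicate 2 lists had peaks, with −log10 q of 10.8 in 4A, 8.16 in 4D and 15.8 in WT. Inside this long gene lay 3 regions, and 1 of them, 57.9 kb from the start, was called in each replicate 2 list.

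ILK had a region inside the gene and another beyond it that were called in all 6 libraries, both of middling rank. The inner one (chromosome 11, 6606876 to 6607371) also overlaps TAF10, which shares this stretch with ILK. Its fold enrichment was 5.11 and 7.01 in 4A, 6.22 and 5.60 in 4D, and 5.52 and 7.93 in WT. The outer one (6618223 to 6619008) lay 7.35 kb above ILK and over TPP1, with 5.60 and 8.29 in 4A, 4.98 and 4.28 in 4D, and 7.46 and 8.95 in WT. At the ILK start (6603421 to 6603995), where RRP8 also reaches, peaks were called only in replicate 2, with −log10 q of 6.03 in 4A, 11.7 in 4D and 13.9 in WT.

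At 6 of the 7 members with an entry in the promoter table a summit lay within 1000 bases of a RefSeq start. ITGAL, ITGB2 and SELPLG have no entry and could not be counted, and the share over all genes is not given here. The summits fell before the start at ITGA4, TLN1, ITGB1, VCL and ILK and after it at the second FERMT3 start. At ITGB1 they were at -96 bases from the start in 4A replicate 2, -51 in 4D replicate 2, and -125 and -51 in the WT replicates. At VCL they were at -159 (4A), -287 (4D) and -208 (WT) in the replicate 2 lists, and at ILK at -63 (4A), -85 (4D) and -45 (WT).

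**Figure D4:**
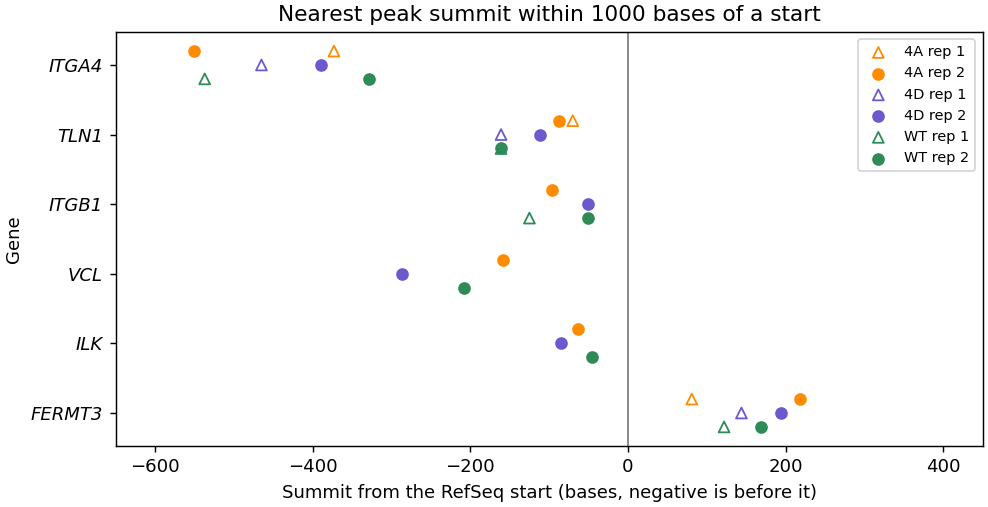
Distance in bases from the RefSeq start to the nearest peak summit of each library, for the 6 genes with a summit within 1000 bases of a start (for FERMT3 the second start), with triangles for replicate 1 and filled circles for replicate 2. ITGA4 summits lie between -550 and -329 bases, and FERMT3 summits 81 to 218 bases after it.

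Of the 15 regions called in all 6 libraries, 8 lay over the member itself, 4 of them over a gene end, and 7 lay outside. The same shares over the whole union are not given, so these counts describe the 15 regions alone. Of the 7, 5 lay over another protein-coding gene, ZNF385A, ZNF768 with 2, STIP1 and TPP1, and 2 lay over none, those below ITGAL and before VCL. For ITGA5, ITGAL and VCL all such regions were outside the gene, so which gene they serve cannot be told from the lists. Near the 20 kb limit, the ITGB2 region at 19.8 kb and the FERMT3 region at 19.5 kb were just inside, and the nearest ones outside were at 22.0 kb (FERMT3), 22.3 kb (ITGB2) and 22.4 kb (ITGB1).

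The regions in all 6 libraries had a median of the mean percentile rank of 75.1, against 76.2 over all 3295 regions called in all 6 libraries. Their median width was 1070 bases against 866, and the summits of the 6 libraries spanned a median of 152 bases against 107. They made up 23.1% of the 65 regions, against 9.84% of the union and 10.7% of regions within 20 kb of any protein-coding gene. Regions called in 1 library, 18 in number, ranked low, with a median percentile of 11.7 in the list that held them, and 10 of them came from WT replicate 2, the longest list. Regions called in replicate 2 lists alone numbered 44 (67.7%), against 72.6% of the union and 71.7% of regions within 20 kb of any protein-coding gene.

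The comparison of the lines asks whether the phosphosite forms bind these genes differently from the wild type. No region of the windows was called in both libraries of one line and in neither of another, for 4D against WT, 4A against WT or 4D against 4A. In the union such regions were rare as well: 0.114% were in 4D and not WT, 0.472% in WT and not 4D, 0.206% in 4A and not WT, 0.269% in WT and not 4A, 0.314% in 4D and not 4A, and 0.669% in 4A and not 4D. Within 20 kb of any protein-coding gene the shares were 0.107% for 4D and not WT, 0.495% for WT and not 4D, 0.203% for 4A and not WT, 0.247% for WT and not 4A, 0.270% for 4D and not 4A, and 0.639% for 4A and not 4D. With 65 regions, a share of this size would leave under 1 region, so the count of 0 does not show that the forms bind alike.

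Where the sets differed, the replicate 1 lists set the difference. All 21 regions called in any replicate 1 list were called in each of the 3 replicate 2 lists, while in the union 84.9% of such regions were. Of the 21, 15 were in all 3 replicate 1 lists and 6 in some of them. Regions near ITGB2 (44872515 to 44874638), TLN1 and FERMT3 (64240912 to 64241767) were in the 4A replicate 1 list alone of the 3, the ITGB1 promoter and a region 19.8 kb below ITGB2 in that of WT alone, and a region 2.09 kb above FERMT3 in those of 4A and 4D. Those in the 4A list alone had −log10 q of 2.53, 5.29 and 5.55 there. With only peaks of a −log10 q of at least 5, the ITGB1 promoter and the second FERMT3 start were found with WT and not 4D, and the FERMT3 start also with 4A and not 4D. The share of the union that parts the lines at this minimum is not given, so these regions do not show a difference between lines. Several peaks lay close to that minimum. At the ITGB1 promoter 4D replicate 2 had 4.89 and WT replicate 1 had 5.43. At the FERMT3 start the 4D replicates had 4.85 and 1.92, and the 4A replicates 5.44 and 5.08.

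**Figure D5:**
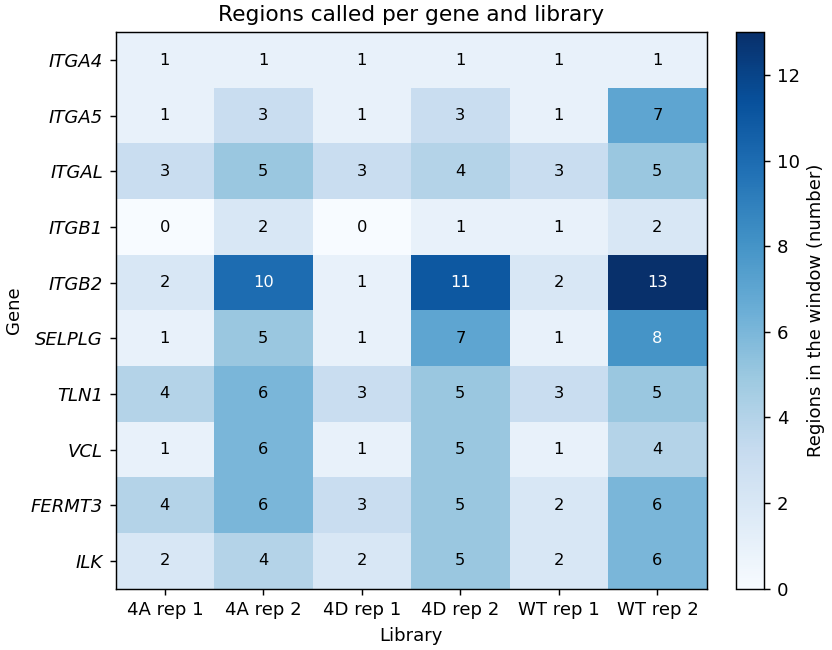
Number of regions called in the window of each gene (rows) in each library (columns), with the number printed in each cell and shaded from 0 to 13. In each line the replicate 2 column holds at least as many regions as the replicate 1 column, and ITGB2 reaches 10, 11 and 13 in replicate 2 of 4A, 4D and WT.

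The numbers of peaks in the windows differed less between lines than between the replicates of a line. There were 19 and 50 peaks in 4A, 16 and 51 in 4D, and 18 and 58 in WT. The means were 34.5 ± 21.9 in 4A, 33.5 ± 24.7 in 4D and 38.0 ± 28.3 in WT (SD, n = 2). An exact permutation test of the spread of the 3 line means of log2 numbers, which has no direction, gave p = 0.867, and this design cannot go below 0.0667. As a share of their list, the windows held 0.303 and 0.206% of peaks in 4A, 0.299 and 0.241% in 4D, and 0.266 and 0.224% in WT, higher in replicate 1 in each line.

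Among 54 other genes of integrin adhesion, regions called in all 6 libraries were present at 26 (48.1%), against 21.0% of all protein-coding genes. These 54 genes too were chosen with earlier results of these data known. The 4A, 4D and WT sets reached 29, 29 and 33 of them, against 31.1%, 28.0% and 34.9%. Cytoplasmic linkers and adaptors had such a region at 12 of 17 genes, among them PXN (paxillin), ZYX (zyxin), VASP, FLNA (filamin A), the α-actinins ACTN1 and ACTN4, PARVB, LIMS1 and RSU1, partners of ILK, and TLN2, the second talin, with SHARPIN and DOK1, which bind integrin tails. Activating and signalling genes had one at 7 of 13: RASGRP2 and RAP1B, which switch on platelet and leukocyte integrins, the kinases PTK2, PTK2B, SRC and FYN, and the scaffold BCAR1.

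Of the other integrin subunits, 4 of 14 had one, near the 21.0% of all protein-coding genes. These were ITGA2B and ITGB3, the fibrinogen receptor of platelets, ITGA9, and ITGB7, a partner of ITGA4 in lymphocytes. The next 5 genes were picked after their values were seen. ITGAM, ITGAX and ITGAD, the other α partners of ITGB2, had a region in no line's set, and ITGAM and ITGAX had 1 region in each replicate 2 list. ITGAE, an α partner of ITGB7, was in the 4A and WT sets and not the 4D set, and ITGB5 in the WT set alone. Both genes had regions in the replicate 2 list of every line, and what kept ITGAE from the 4D set and ITGB5 from the 4A and 4D sets was their absence from the shorter replicate 1 lists. Among ligands, counter-receptors and selectins, 3 of 10 had one, CD44, ICAM1 and MADCAM1, also near that 21.0%. ITGA9, with 2 regions called in all 6 libraries, carried 28 regions in total, and PARVB and ACTN4 12 each, in windows whose length was not adjusted for.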

How the data were processed

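HA-RUNX1 CUT&RUN was deposited as 6 peak lists, 1 per library, for lines 4A, 4D and WT with 2 replicates each. Per the submitters' processing notes, the tools were MACS2 2.2.7.1, Bowtie2 2.4.2, cutadapt 3.4, deepTools 3.5.1 and Picard 2.25.6, on hg38. Per the series design, the empty vector line was the background. Read filters are not stated here. The authors' lists give each peak a fold enrichment (a linear ratio), the −log10 of a p-value and q-value, an integer score and a summit. The lowest −log10 q of a list was 1.30 to 1.41.

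Overlapping peaks (at least 1 base) of the autosomes, X and Y were merged into regions (Python 3.11.15, pandas 2.3.3). Gene positions came from RefSeq, GRCh38.p14, and strands from its promoter table. Coordinates are 1-based. Window counting was tested on simulated data, which placed 300 of 300 made-up genes right. The members and lists were chosen with earlier results of these data known. By rule, all members were named, with the leading region of each by mean percentile rank, regions in all 6 libraries and regions parting the lines. Of the wider list the rule named the genes with a region in all 6. The other regions described, and ITGAM, ITGAX, ITGAD, ITGAE and ITGB5, fall outside this rule. Their values therefore do not test a difference between lines. Single regions were not tested between lines. Alternatives were the q minimum, the window, summits, the merging rule, list length, the nearest gene and each replicate left out.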

Additional observations from a re-analysis of the deposited data

How the results depend on the processing

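The lists differ in length by replicate, which limits what can be said of lines, and neither reads nor sequence at summits were used. The number of members with a region in all 6 libraries was 9 with windows of 10 kb, summits inside the window, merging at 50% of the shorter peak and lists of equal length. It was 7 with a −log10 q of at least 5 (without ILK and ITGA4), with windows of 2 kb (without ITGA5 and VCL) and with only regions nearest to the member (without ITGA5 and ITGAL). Shares of all protein-coding genes are given for the reported setting alone. The 21.0% above is thus not a match for these alternative counts. Regions called in all 6 libraries numbered 9, against 15, with 2 kb windows and with nearest regions. With a −log10 q of at least 5, 2 regions were in WT and not 4D and 1 in 4A and not 4D, against 0. Shares of the union at this minimum are not given, so these counts do not part the lines. At the ITGB1 promoter 4D had a −log10 q of 4.89 in replicate 2 and no peak in replicate 1. At the second FERMT3 start it had 4.85 in replicate 1 and 1.92 in replicate 2. With a single replicate left in each line, regions called throughout numbered 15 to 40. Regions in 4D and not WT then numbered 1 to 4, in WT and not 4D 2 to 14, in 4A and not WT 4 in each case, in WT and not 4A 2 to 13, in 4D and not 4A 0 to 7, and in 4A and not 4D 3 to 8. Each line then rests on 1 list. The higher values came from the replicate 2 lists, which held 24251 (4A), 21122 (4D) and 25911 (WT) peaks. Shares of the union at this setting are not given, so these counts do not show a difference between lines. The other counts of members and regions stayed within 1.5 times the reported ones. Peaks in the windows fell further with windows of 2 kb, to 9 and 24 in 4A, 9 and 23 in 4D, and 11 and 28 in WT.

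Replicate numbers are not said to mark a shared batch. Over the regions, the call in replicate 1 less that in replicate 2 correlated between lines at 0.116 (4A and 4D), 0.107 (4A and WT) and 0.183 (4D and WT). Because the replicate 2 lists were longer in every line, these correlations cannot tell whether the numbers mark a batch. With the replicate number as a block the exact permutation p for peaks in the windows was 0.667, where the smallest possible is 0.167.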
